A study of Mus musculus with 2 samples.

Results

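Transcripts of 9 hormone and granin genes of the pancreatic islet (Ins1, Ins2, Iapp, Gcg, Sst, Ppy, Pyy, Chga and Chgb) were counted in leukocytes sorted from islets of NOD mice, which become diabetic through autoimmunity. The genes were chosen by symbol, and each symbol matched 1 of the 32285 genes in the count matrices. The question was in which leukocytes these RNAs sit at a low, even level and in which they exceed it. Each group had 1 droplet library, WT NOD and NOD.Cxcl16-/-, from female mice aged 12 weeks. The labels give neither how many mice were pooled nor how the Cxcl16 allele was made. Islets were freed by perfusing collagenase through the bile duct, picked by hand and dispersed without enzymes, and live CD45-positive CD31-negative cells were sorted. Pairs of values below give WT NOD first and the library labelled NOD.Cxcl16-/- second. With 1 library per group there is no replicate check and no test, and all intervals are exact 95% intervals that cover counting error only.

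Islet endocrine cells make and store peptide hormones. β cells transcribe Ins1 and Ins2, the 2 insulin genes of the mouse, and Iapp, which encodes islet amyloid polypeptide, co-secreted with insulin. Gcg encodes proglucagon of α cells, Sst encodes somatostatin of δ cells, and Ppy and Pyy encode pancreatic polypeptide and peptide YY. Chga and Chgb encode chromogranins, acidic proteins of the secretory granule. Resident islet macrophages lie against β cells and are known to take up insulin granules, and insulin is a major autoantigen of the NOD mouse. In droplet data, RNA released by broken cells is also captured, so a gene that a cell does not transcribe can still give unique molecular identifiers (UMIs) in it.

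The insulin genes come first because they held most of the hormone UMIs and because their coding sequences are alike. The last 60 coding bases of each are shown, since 3' libraries read the end of a transcript. Capitals mark the 2 bases at which they differ.
Ins1-201: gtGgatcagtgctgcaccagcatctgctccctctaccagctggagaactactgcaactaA
Ins2-201: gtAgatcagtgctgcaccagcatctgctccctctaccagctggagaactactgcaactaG
The coding sequences were 327 bases (Ins1, 2 exons) and 333 bases (Ins2, 3 exons) long. They had the same base at 302 of 333 aligned positions (90.7%), with a longest identical run of 56 bases. Sequences outside the coding part were not compared, so how surely UMIs were split between Ins1 and Ins2 is not known. Their sum is given as insulin.

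Positions are those of GENCODE M21 on GRCm38. Ins1 lies on chromosome 19 (52264297 to 52265476, plus strand) and Ins2 on chromosome 7 (142678656 to 142743381, minus strand). Iapp lies on chromosome 6 (142298423 to 142303961, plus strand) and Sst on chromosome 16 (23889573 to 23890958, minus strand). Gcg (62474530 to 62483650, minus strand) and Chgb (132781278 to 132795079, plus strand) are on chromosome 2, and Chga is on chromosome 12 (102554969 to 102565028, plus strand). Ppy (102099930 to 102101319) and Pyy (102106676 to 102107832) lie close together on the minus strand of chromosome 11. These libraries count 1 tag per captured transcript whatever its length, so UMIs of different genes can be set side by side. This holds less surely for insulin, because how reads alike in Ins1 and Ins2 were counted is not given.

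The libraries held 13859 and 10554 barcodes with 93553185 and 98681133 UMIs, and 45 barcode sequences occurred in both. After filters 12252 and 10214 barcodes were kept, at medians of 4269 and 5189 UMIs. Cxcl16 itself, the targeted gene, stood at 104 and 102 CPM, UMIs scaled to the class total, over the kept barcodes, and at 765 and 535 in macrophages (541 and 966 UMIs). This goes against the label of the second library, although the part of the gene that the allele removes is not given in the sources used here and a 3' tag may lie outside it. The library is called by its label throughout, and no difference is attributed to the genotype. Marker gates placed 9157 and 8017 barcodes in a cell class, 909 and 755 barcodes carried markers of 2 lineages, and 2139 and 1416 met no gate. The macrophage gate asked for at least 4 of 10 markers with 2 C1q chains and held 71 and 171 barcodes. Its leading genes over the other classes included C1qa, C1qb, C1qc, Trem2 and C3ar1, of which only the C1q genes were used by the gate.

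Lymphocytes carried insulin UMIs in few barcodes of the WT NOD library and in many of the other. An Ins1 or Ins2 UMI was found in 5.49% (interval 4.51 to 6.61) of 1913 B cells in WT NOD and in 33.0% (30.996 to 35.03) of 2134 B cells in the library labelled NOD.Cxcl16-/-, at median depths of 4450 and 4616 UMIs. The B cells, which are not known to transcribe insulin, held 0.214 and 0.649 insulin UMIs per cell. Depth was similar in both libraries, and the share with insulin was higher in the second.

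Other lymphocyte classes lay on both sides of the B cells. Insulin was detected in 12.0% and 44.0% of CD4 T cells, in 8.88% and 40.1% of CD8 T cells, in 17.9% and 50.4% of regulatory T cells and in 7.29% and 25.6% of NK cells. Plasma cells, with 21988 and 26057 UMIs at the median, had shares of 6.94% and 38.6%. None of 79 γδ T cells of WT NOD had an insulin UMI, which by a limit of 3 counts allows up to 3.80% of cells with such a UMI, against 35.8% of 81 in the other library. The median count was 0 in every lymphocyte class of both libraries except regulatory T cells of the library labelled NOD.Cxcl16-/-, where it was 1.

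The lymphocyte level was therefore not the same in every class, and single barcodes moved several means. CD4 T cells held 1.96 and 1.51 insulin UMIs per cell. In WT NOD 1 CD4 T-cell barcode held 1237 insulin UMIs, 45.8% of the class, and without it the mean was 1.06. Regulatory T cells of WT NOD fell from 2.36 to 0.273 UMIs per cell when the barcode with 88.5% of their insulin UMIs was left out. Within B cells of WT NOD the spread was wider than counting alone gives: the Fano factor, the variance over the mean, was 66.7, and a Poisson count of the same mean would put a UMI in 19.3% of cells. For the second library the Fano factor was 9.10 and the Poisson share 47.7%. In WT NOD 2 B-cell barcodes, with 117 and 114, held 56.3% of the insulin UMIs of the class. Without the 2 highest of each library, a step chosen after seeing the data, the means were 0.0937 and 0.588 UMIs per cell, the Fano factors 4.10 and 3.31, and the Poisson shares 8.94% and 44.4%, against 5.39% and 32.9% of cells with a UMI.

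Macrophages stood far above this level. They held 55.5 and 125 insulin UMIs per cell, from 3943 and 21329 UMIs. Ins2 reached 36.5 UMIs per cell (35.1 to 37.9) in WT NOD and 83.7 (82.3 to 85.1) in the library labelled NOD.Cxcl16-/-, against 0.135 (0.119 to 0.153) and 0.416 (0.389 to 0.444) in B cells. Ins1 reached 19.1 (18.1 to 20.1) and 41.0 (40.1 to 42.0), against 0.0789 (0.0668 to 0.0926) and 0.232 (0.212 to 0.254). The ratio of macrophages to B cells was 269 (237 to 307) and 201 (188 to 215) for Ins2, and 241 (204 to 288) and 177 (161 to 194) for Ins1. Macrophage barcodes had 10018 and 9518 UMIs at the median, more than B cells. On the CPM scale the ratios were 142 and 114 for Ins2 and 127 and 99.7 for Ins1.

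**Figure D1:**
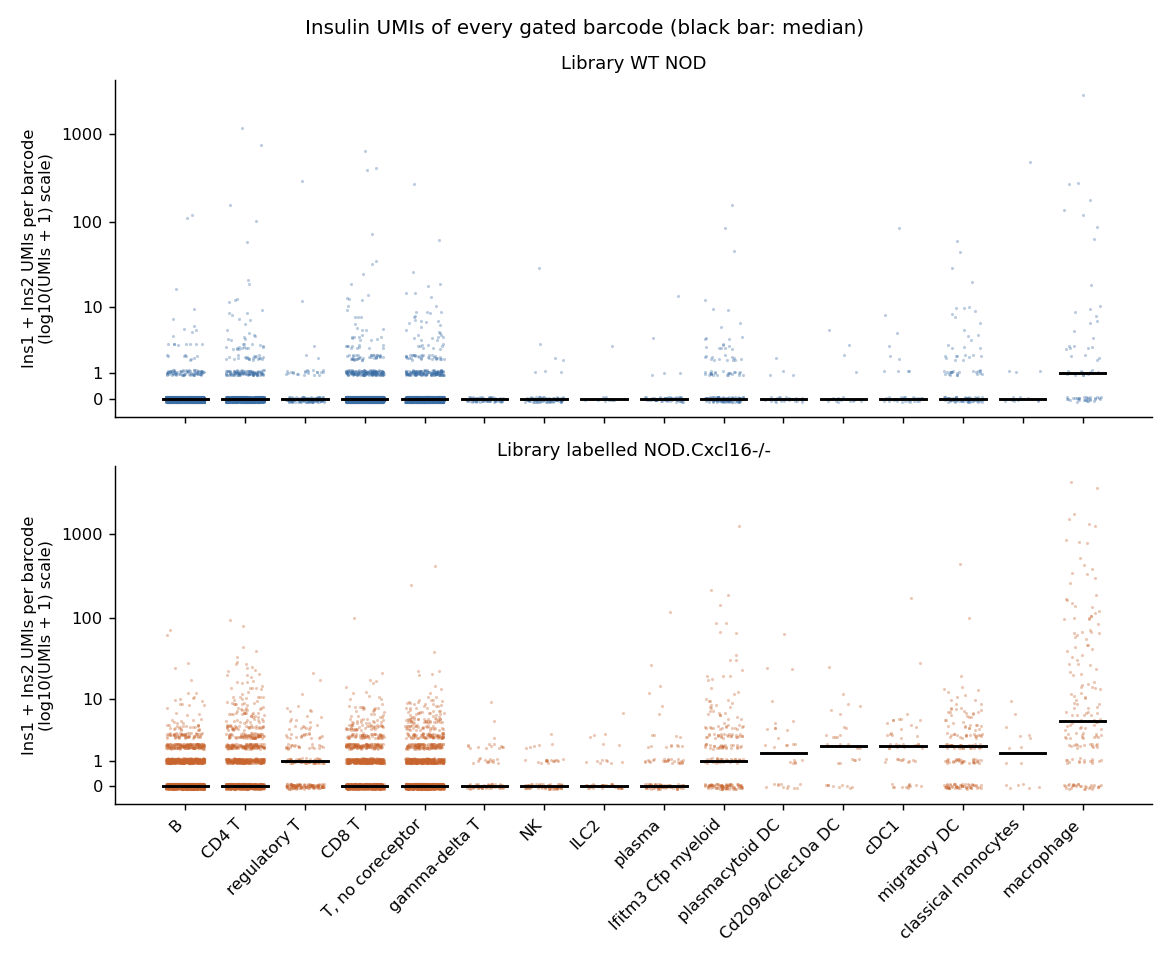
Summed Ins1 and Ins2 UMIs of every gated barcode, on a log10(UMIs + 1) axis, by cell class in the WT NOD library (top) and the library labelled NOD.Cxcl16-/- (bottom); each point is a barcode and the black bar is the median. Macrophages reach 2684 and 3907 UMIs at medians of 1 and 5, while the medians of B cells are 0.

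Most macrophage insulin sat in few barcodes. At least 1 insulin UMI was found in 56.3% (44.0 to 68.1) and 81.9% (75.3 to 87.3) of macrophages, at least 10 in 15.5% (7.996 to 26.0) and 39.2% (31.8 to 46.9), and at least 100 in 6 and 29 barcodes (8.45% and 17.0%). The median macrophage had 1 and 5 UMIs, while the top 5% of barcodes held 86.6% and 73.0% of the insulin UMIs. In WT NOD the highest macrophage had 2684 insulin UMIs, 68.1% of the class and 12.2% of its own UMIs, and the next had 282. In the second library the highest 5 had 3907, 3510, 1721, 1585 and 1317. Without the highest barcode the WT NOD mean fell from 55.5 to 18.0 and the other from 125 to 102 insulin UMIs per cell. On the count of Ins2 alone, the ratio to B cells without the highest barcode of each class was 125 and 173.

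Ptprc and markers of endocrine cells were counted in these barcodes. Ptprc, which encodes the sort marker CD45, had a UMI in 6 of 6 WT NOD macrophages with at least 100 insulin UMIs and in 26 of 29 in the other library. For macrophages with no insulin UMI these counts were 25 of 31 and 24 of 31. All of these barcodes passed the macrophage gate, and a macrophage caught with a second cell would also carry Ptprc. Its presence therefore cannot tell whether a second cell was there. The highest 2 macrophages of the library labelled NOD.Cxcl16-/- (3907 and 3510 insulin UMIs) had no Ptprc UMI. A panel of 13 markers of endocrine cells outside the 9 genes gave 2.03 UMIs per 1000 insulin UMIs (0.876 to 3.998) in WT NOD macrophages and 2.16 (1.58 to 2.88) in the others. At least 3 different markers of the panel were found in 1 and 4 macrophages. Leaving those barcodes out gave ratios of macrophages to B cells of 88.5 and 115 for Ins2. The part of captured whole endocrine cells in the macrophage level was not tested.

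Barcodes made up almost wholly of endocrine RNA give a scale for that panel. Among barcodes that met no gate, 1 of the library labelled NOD.Cxcl16-/- held 8628 Ins1 and 25135 Ins2 UMIs, 309 of Iapp, 153 of Chga and 64 of Chgb, which was 86.3% of its 39716 UMIs, with 12 of the 13 markers and no Ptprc UMI. Its panel gave 7.32 UMIs per 1000 insulin UMIs. A WT NOD barcode with 4016 Ins1, 7862 Ins2 and 629 Iapp UMIs, 84.5% of its total, gave 1.85. The macrophage values of 2.03 and 2.16 thus lay near the lower of these 2 barcodes and below the other. Of 14 and 18 barcodes with at least 1000 UMIs of the 9 genes, 1 and 6 were macrophages, 7 and 9 met no gate, and 3 and 5 had no Ptprc UMI.

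Macrophages stayed highest in insulin detection among B, T and macrophage barcodes when each barcode was reduced to 2000 UMIs. In macrophages 36.1% (24.2 to 49.4) and 60.9% (52.8 to 68.6) then kept an insulin UMI, with 10 and 15 shallower barcodes left out. In B cells the shares were 2.37% (1.70 to 3.21) and 18.0% (16.4 to 19.7), with 224 and 90 left out. CD4 T cells gave 6.56% (5.27 to 8.06) and 25.5% (23.1 to 27.9), and CD8 T cells 3.76% (3.00 to 4.64) and 17.6% (15.7 to 19.6). The intervals of macrophages overlapped those of no B or T-cell class in either library. Between lymphocyte classes the thinned shares differed by more than their intervals: in the second library T cells without a coreceptor UMI had 28.8% (26.6 to 31.2) and NK cells 10.0% (4.42 to 18.8).

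**Figure D2:**
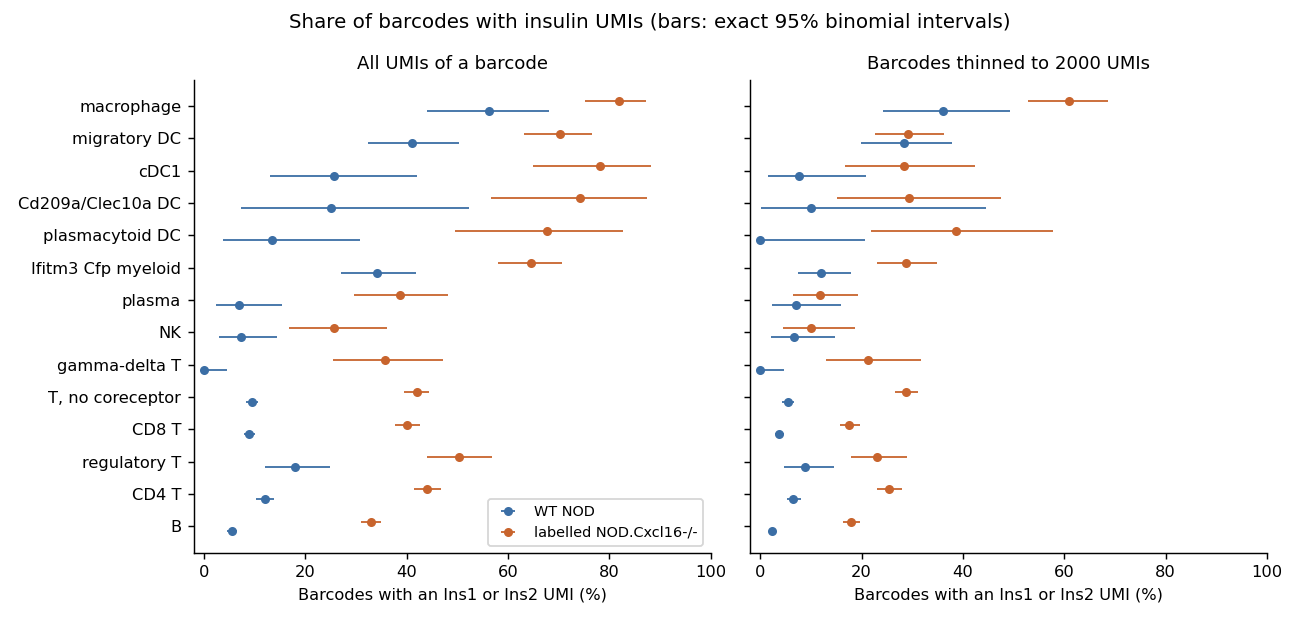
Share of barcodes with an Ins1 or Ins2 UMI by cell class (%), as counted and after thinning each barcode to 2000 UMIs; points are the 2 libraries and bars are exact 95% binomial intervals. Thinning lowers macrophages from 56.3% to 36.1% and from 81.9% to 60.9%, and B cells from 5.49% to 2.37% and from 33.0% to 18.0%.

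Depth quartiles within a class were compared next. The shallowest quartile of macrophages, with medians of 1646 and 2572 UMIs, had insulin in 44.4% and 67.4% of barcodes. The deepest quartile of B cells, at 7506 and 8298 UMIs, had it in 10.0% and 36.9%. CD4 T cells rose with depth, from 8.72% to 20.3% between the shallowest and deepest quartile of WT NOD and from 35.6% to 58.1% in the other library.

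**Figure D3:**
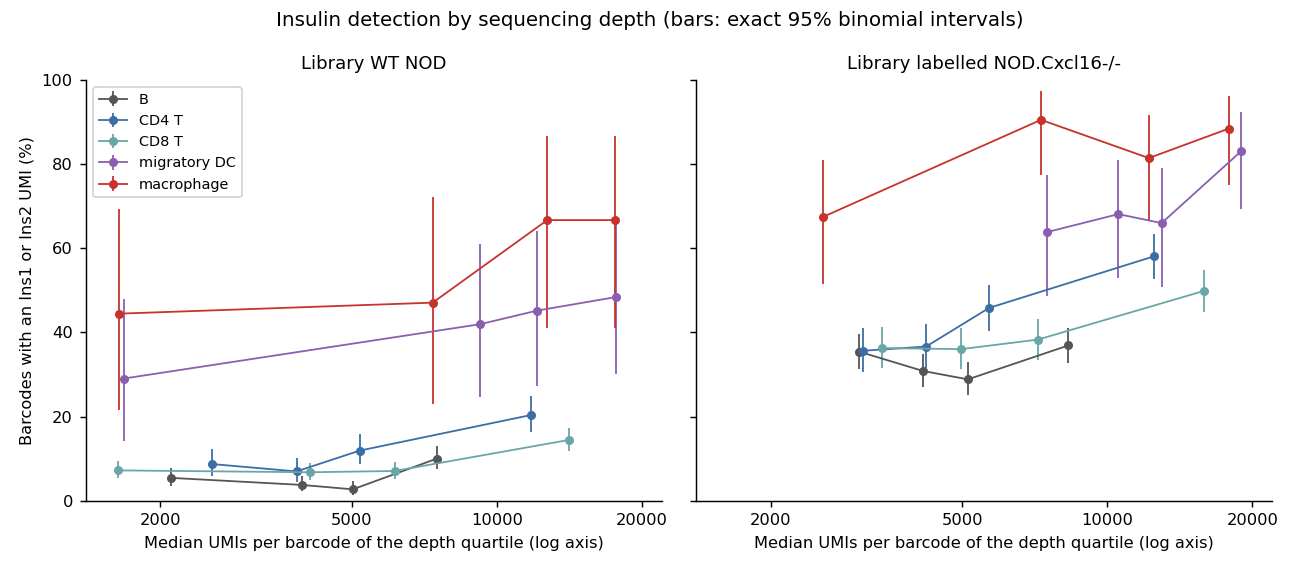
Share of barcodes with an Ins1 or Ins2 UMI (%) against the median UMIs of each depth quartile (log axis) in each library; bars are exact 95% binomial intervals. The shallowest macrophages (44.4% and 67.4%) lie above the deepest B cells (10.0% and 36.9%).

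The remaining β-cell hormone was also higher in macrophages than in B cells, at a lower level than insulin. Iapp stood at 5.61 UMIs per cell (5.07 to 6.18) in WT NOD macrophages and 4.83 (4.51 to 5.17) in the other library, against 0.0282 and 0.0366 in B cells. The ratio to B cells was 199 (149 to 269) and 132 (105 to 169). An Iapp UMI was found in 23.9% and 42.1% of macrophages and in 0.941% and 3.00% of B cells.

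Hormones of other endocrine cells were also high in macrophages. Sst stood at 3.61 UMIs per cell (3.18 to 4.08) and 2.75 (2.51 to 3.01), against 0.0293 and 0.0300 in B cells, a ratio of 123 (91.9 to 168) and 91.8 (70.6 to 121). In WT NOD 49 of the 56 Sst UMIs of B cells were in 1 barcode. Gcg stood at 0.254 (0.150 to 0.401) and 0.784 (0.657 to 0.928) in macrophages and at 0.0355 and 0.0262 in B cells. Its ratio, 7.13 (3.99 to 12.1) and 29.9 (21.7 to 41.6), was the lowest of the hormones with enough UMIs in macrophages, and 85 of the 134 Gcg UMIs of macrophages in the second library were in 1 barcode, as were 34 of the 68 of WT NOD B cells. Without the highest barcode Gcg in macrophages was 0.129 and 0.288 UMIs per cell.

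Pyy and the granins gave few UMIs. Pyy had 26 and 109 UMIs in macrophages against 4 and 3 in B cells, a ratio of 175 (60.8 to 691) and 453 (151 to 2233). Chga had 7 and 19 against 2 and 4, a ratio of 94.3 (18.0 to 930) and 59.3 (19.7 to 240). Chgb had 12 UMIs in macrophages of the library labelled NOD.Cxcl16-/- against 5 in B cells, a ratio of 29.95 (9.82 to 109), and 1 against 1 in WT NOD. Ppy had no UMI in the 71 WT NOD macrophages, which by the same limit allows up to 4.23% of cells with a Ppy UMI, and 6 in B cells; in the other library it had 2 and 4, a ratio of 6.24 (0.564 to 43.5). No excess of Ppy in macrophages could be detected at this depth in either library.

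T cells carried the other hormones as well, and single barcodes weighed more there. Sst stood at 0.297 (0.269 to 0.327) and 0.347 (0.316 to 0.380) UMIs per CD4 T cell, but 374 of the 463 Sst UMIs of the second library were in 1 barcode, and without the highest barcode the levels were 0.173 and 0.0667. Gcg stood at 0.155 (0.135 to 0.177) and 0.157 (0.136 to 0.179), and at 0.0596 and 0.0900 without the highest barcode. Iapp stood at 0.241 (0.216 to 0.269) and 0.191 (0.168 to 0.216), and at 0.140 and 0.103 without it. In CD8 T cells the levels were lower, at 0.0305 and 0.0560 for Sst, 0.0485 and 0.0756 for Gcg and 0.0474 and 0.0730 for Iapp. Without the highest barcode of each class, Gcg per cell was 0.129 and 0.288 in macrophages, above the 0.0596 and 0.0900 of CD4 T cells. With all barcodes, Iapp and Sst were far higher in macrophages than in these T cells.

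The same scale was applied to all genes. Of genes with at least 20 UMIs in macrophages and B cells together, 16.2% in WT NOD and 16.9% in the other library were at least 2-fold higher by CPM in macrophages, with a median log2 ratio of -0.35 in both. The 6 of the 9 genes that reached 20 UMIs in WT NOD were past that fold, and the 7 in the other, with median log2 ratios of 6.62 and 6.22. A gene can reach the minimum through macrophages alone, so these counts describe the genes and support nothing further. The genes below the minimum were Ppy, Chga and Chgb in WT NOD and Ppy and Chgb in the other library. Of a list of 29 further endocrine genes, 3 and 7 reached the minimum and 1 and 5 were past the fold. Of 16 genes of uptake and the lysosome, which macrophages express, 14 reached it in each library and 13 were past the fold, at medians of 4.75 and 4.45. These medians cover only genes that reached the minimum, so the hormone genes and the uptake list are not ranked by them.

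**Figure D4:**
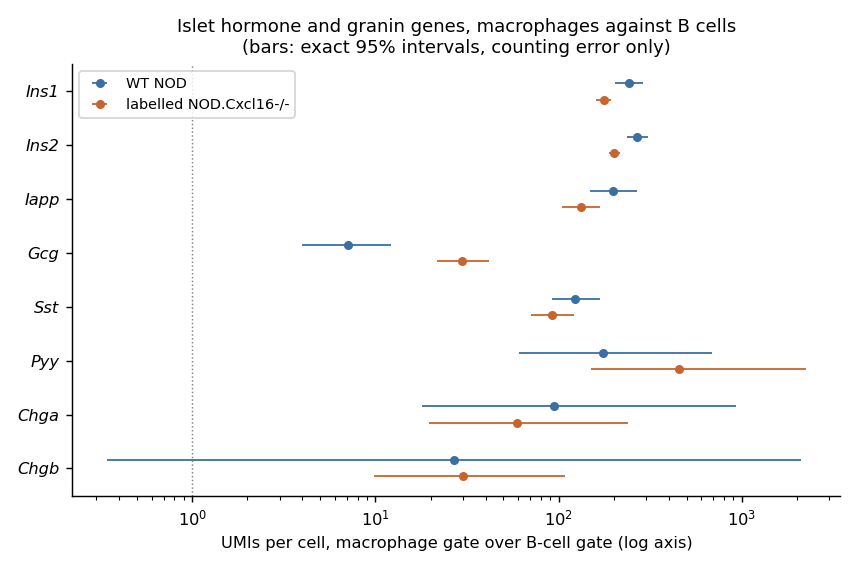
Ratio of UMIs per cell in macrophages over B cells for the hormone and granin genes other than Ppy (log axis), by library. Bars are exact 95% intervals of counting error. Ins1, Ins2, Iapp and Sst lie between 91.8 and 269, and Gcg lies at 7.13 and 29.9. Ppy, with 0 and 2 macrophage UMIs, is not drawn.

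The mix of hormones differed between macrophages and B cells. Ins2 made up 55.7% (54.3 to 57.1) and 62.5% (61.9 to 63.1) of the UMIs of the 9 genes in macrophages, and 43.1% (39.1 to 47.2) and 55.6% (53.1 to 58.0) in B cells. Gcg made up 0.387% (0.230 to 0.611) and 0.585% (0.490 to 0.693) in macrophages, and 11.3% (8.89 to 14.1) and 3.50% (2.66 to 4.53) in B cells. Sst made up 5.51% and 2.06% in macrophages and 9.32% and 4.01% in B cells. These shares depended on few barcodes. Without the 5% of barcodes with the most UMIs of the 9 genes, Sst was 25.4% and 6.83% in macrophages, and the Ins2 share of WT NOD was 40.1% in macrophages against 46.2% in B cells, the reverse order. In WT NOD B cells 34 of the 68 Gcg UMIs were in 1 barcode. Ins1 per 100 Ins2 UMIs was alike, at 52.2 and 49.0 in macrophages and 58.3 and 55.9 in B cells.

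**Figure D5:**
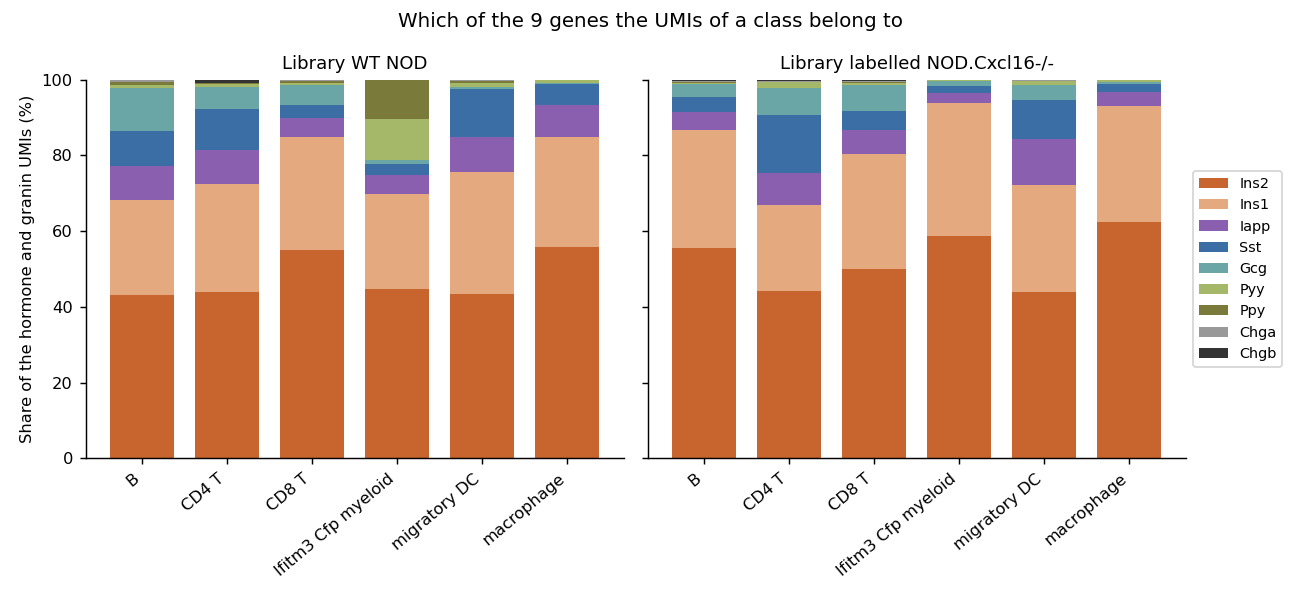
Share of the UMIs of the 9 genes that belongs to each gene (%), stacked by cell class in each library. Ins2 is the largest part in macrophages (55.7% and 62.5%), and Gcg is 11.3% and 3.50% in B cells against 0.387% and 0.585% in macrophages.

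Macrophages with many insulin UMIs and those with many Sst UMIs were counted as sets. In WT NOD 11 macrophages had at least 10 insulin UMIs and held 98.0% of that hormone, and 4 had at least 10 Sst UMIs and held 91.0%, with 1 of the 11 and of the 4 in both sets. For the second library these were 67 macrophages (98.8%) and 9 (88.7%), with 3 of the 67 and of the 9 in both. With sets this small nothing is read from the overlap, and single barcodes show what occurred. The highest Sst macrophage of WT NOD had 107 Sst, 17 Iapp and 2 insulin UMIs, with 5 Ptprc UMIs, and the next had 82 Sst, 15 Iapp and no insulin UMI. In the second library the highest had 125 Sst, 25 Pyy and 20 insulin UMIs, with 8 Ptprc UMIs, and the next had 102 Sst, 33 Pyy and 1 insulin UMI. All 5 macrophages with at least 10 Pyy UMIs also had at least 10 Sst UMIs, and 1 of them had as many of insulin. Of macrophages with at least 10 Iapp UMIs, 4 of 6 and 15 of 16 had at least 10 insulin UMIs.

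Barcodes outside the gates held hormones both alone and together. A barcode of the library labelled NOD.Cxcl16-/- with 10261 Sst UMIs held 3549 of Iapp, 1169 of Pyy and 423 of Chgb, with 16 insulin UMIs and no Ptprc UMI. A WT NOD barcode with 1634 Sst UMIs held 302 of Pyy, 296 of Iapp and 1 insulin UMI. Another of WT NOD held 6361 Ppy and 880 Pyy UMIs with no insulin, and 1 of the second library held 1963 Gcg UMIs with 2 of insulin. In these barcodes 1 hormone led, and Sst came with Pyy and Iapp. Other barcodes of the second library that met no gate held insulin and Sst together, with 735 insulin and 475 Sst UMIs in 1, 859 and 307 in another and 1077 and 82 in another, and these had 45, 23 and 30 Ptprc UMIs.

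Dendritic cells carried insulin above B cells, but by far less than macrophages did. Ins2 per cell over B cells was 14.4 (11.0 to 18.7) and 8.04 (6.82 to 9.43) in cDC1, the cross-presenting dendritic cells (39 and 55 barcodes). Migratory dendritic cells (124 and 188) gave 9.95 (8.14 to 12.1) and 7.95 (7.16 to 8.82). Those with Cd209a or Clec10a (16 and 35) gave 3.69 (1.58 to 7.39) and 4.74 (3.65 to 6.06). Plasmacytoid dendritic cells (30 and 34) gave 0.739 (0.151 to 2.18) and 7.99 (6.51 to 9.72), and they had 3090 and 8809 UMIs at the median. The WT NOD value of the plasmacytoid class rests on 3 UMIs and lay above 1 under several alternatives, at up to 7.21. Few barcodes held much of the insulin here too. The top 5% of barcodes held 85.7% and 66.4% of the insulin UMIs of cDC1, and 65.3% and 64.9% of those of migratory dendritic cells. The highest single barcodes had 88 and 161 insulin UMIs in cDC1 and 64 and 464 in migratory dendritic cells. These classes are deep, at 21564 and 18501 UMIs for cDC1 and 11136 and 11862 for migratory dendritic cells. By CPM the ratios were 3.47 and 2.55 for cDC1, 4.89 and 3.77 for migratory, 2.68 and 2.49 for Cd209a or Clec10a and 0.702 and 5.06 for plasmacytoid dendritic cells.

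Detection in dendritic cells was set beside T cells of like depth. After thinning to 2000 UMIs, migratory dendritic cells had insulin in 28.3% (19.98 to 37.9) and 29.2% (22.8 to 36.3), and cDC1 in 7.69% (1.62 to 20.9) and 28.3% (16.8 to 42.3). In WT NOD the migratory dendritic cells lay above CD4 T cells (6.56%), with intervals apart. In the library labelled NOD.Cxcl16-/- all 4 dendritic cell intervals overlapped that of CD4 T cells (23.1 to 27.9). No excess over CD4 T cells could be detected there by this measure. Against CD8 T cells (15.7 to 19.6), the migratory (22.8 to 36.3) and plasmacytoid (21.85 to 57.8) intervals lay above, and the other dendritic cell intervals overlapped. Unthinned, migratory dendritic cells had insulin in 41.1% and 70.2%, against 20.3% and 58.1% of the deepest quartile of CD4 T cells, at 11747 and 12519 UMIs.

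Other hormones in dendritic cells rested on single barcodes. In WT NOD 92 of 97 Sst UMIs and 60 of 76 Ins2 UMIs of cDC1 were in 1 barcode, as were 67 of 68 Gcg UMIs of the Cd209a or Clec10a class, and 60 of 61 Gcg UMIs of cDC1 in the second library. Of the 5 genes with at least 20 UMIs, those at least 2-fold above B cells by CPM numbered 4 and 4 in cDC1 (14.2% and 12.6% of all genes), 4 and 2 in the Cd209a or Clec10a class (16.4% and 13.7%), 4 and 5 in migratory (15.9% and 16.1%) and 1 and 3 in plasmacytoid dendritic cells (21% and 18%). CD4 T cells, as a lymphocyte class, had 7 of 7 and 4 of 6 past that fold, against 17.4% and 14.8% of all genes. All of these comparisons share the B cells.

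Among other myeloid barcodes, cells with Ifitm3 and Cfp (170 and 237) stood at 12.0 and 18.0 times the B-cell level of Ins2 per cell, and 5.56 and 8.30 times by CPM. Insulin was found in 34.1% and 64.6% of them. The top 5% of these barcodes held 79.9% and 81.2% of the insulin UMIs of the class, with 160 and 1318 in the highest. Classical monocytes numbered 16 in each library, and 489 of the 492 insulin UMIs of WT NOD monocytes lay in 1 barcode. Barcodes with macrophage and T-cell markers (165 and 258), which can hold 2 cells, had insulin in 52.1% and 89.9% at medians of 20840 and 22324 UMIs, with 28.3 and 35.6 Ins2 UMIs per cell. Over the kept barcodes, 57.8% and 58.5% of the UMIs of the 9 genes were in barcodes that met no gate, 15.6% and 11.6% in those with macrophage and T-cell markers and 6.59% and 17.2% in macrophages, which were 0.579% and 1.67% of barcodes.

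Between the libraries, insulin was higher in macrophages and B cells of the one labelled NOD.Cxcl16-/-. Its Ins2 level over that of WT NOD was 2.29 (2.20 to 2.39) in macrophages and 3.07 (2.67 to 3.54) in B cells, and Ins1 was 2.15 (2.03 to 2.28) and 2.94 (2.45 to 3.56). The size of these ratios rested on few barcodes: without the 5% of barcodes with the most UMIs of the 9 genes they were 4.61 and 24.7 for Ins2 and 4.26 and 26.2 for Ins1 in macrophages and B cells, and with no marker of another lineage allowed the macrophage ratios were 1.16 for Ins2 and 1.03 for Ins1. Without the highest barcode of WT NOD its macrophages held 12.0 Ins2 UMIs per cell, against 69.0 in the other library without its own. In CD4 T cells the Ins2 ratio was 0.833 (0.775 to 0.897), but 750 of the 1641 Ins2 UMIs of WT NOD were in 1 barcode, and without the highest barcode the direction turned, to 0.648 UMIs per cell in WT NOD and 0.948 in the other library. The ratio of macrophages to B cells for Ins2 was 269 in WT NOD and 201 in the second library, and this order turned without the highest barcode of each class (125 and 173), without barcodes of 3 endocrine markers (88.5 and 115) and with CD4 T cells (30.6 and 84.2) or CD8 T cells (71.9 and 149) as the background.

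The other hormones did not follow insulin between the libraries. In macrophages Gcg was 3.09 times as high (1.88 to 5.37) and Pyy 1.74 times (1.13 to 2.78), while Iapp was 0.862 (0.764 to 0.974) and Sst 0.764 (0.655 to 0.893). None of these directions held under every alternative: with no limit on markers of other lineages Gcg was 0.214 and Pyy 0.386, and Sst was 1.09 with no such marker allowed and 1.15 after thinning. For Iapp, 1 WT NOD macrophage held 211 UMIs, and without the highest barcodes the ratio was 1.51. In B cells Iapp, Gcg and Sst stood at 1.29, 0.738 and 1.02. By CPM, 3 of the 7 genes tested in macrophages were at least 2-fold higher in the library labelled NOD.Cxcl16-/- (Ins1, Ins2 and Gcg), against 5.62% of all genes, and 2 of 5 in B cells (Ins1 and Ins2), against 1.83%. In CD4 and CD8 T cells this held for 0 of 7 and 0 of 6, against 1.02% and 1.44% of all genes. In the reverse direction Chgb was past the fold in CD4 T cells (2.47% of all genes) and no gene in macrophages, B cells or CD8 T cells (2.95%, 1.52% and 2.2%).

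Macrophages rich in insulin were compared with the other macrophages of the same library for genes outside the 9. Those above the 99th percentile of B cells (over 2 and over 5 insulin UMIs) numbered 23 (32.4%) and 81 (47.4%), and they were about as deep as the rest, with 10464 against 9984 and 9328 against 9692 other UMIs at the median. By the same limit 2.98% and 5.54% of CD4 T cells and 15.3% and 15.4% of migratory dendritic cells were insulin-rich. The 13 endocrine markers had 6 UMIs in rich against 2 in other macrophages of WT NOD (CPM ratio 5.53, 0.989 to 56.0), an interval that holds 1. In the second library they had 40 against 6 (6.72, 2.83 to 19.4). Few barcodes weighed in this: the WT NOD macrophage with 2684 insulin UMIs held 4 of the 6. In the second library those with 3907, 3510 and 1585 insulin UMIs held 5, 8 and 5 of the 40. The list of 29 endocrine genes holds these markers. It gave 17 against 32 UMIs (ratio 0.979, 0.510 to 1.82) and 153 against 52 (2.96, 2.15 to 4.14). In WT NOD the summed list thus showed no excess, but 2 genes weighed most in it. Hhex had 2 UMIs in rich against 11 in other macrophages, and Rbp4 had 1 against 14. By CPM 9 of the 29 genes were higher in the rich macrophages of WT NOD, most on 1 to 3 UMIs. The macrophage markers of the gate had ratios of 1.01 and 1.30, and MHC class II genes 1.04 and 1.01.

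Genes of uptake and the lysosome showed no common direction. Of the 16, 13 and 14 reached 20 UMIs, of which 5 and 10 were higher in the rich macrophages and 1 and 3 were at least 2-fold higher, against 4.48% and 4.12% of all genes, with medians of -0.17 and 0.32 on the log2 scale against 0.0081 and 0.011 over all genes. Ctss, which encodes the endosomal protease cathepsin S, had ratios of 1.29 and 1.27. Ctsb, for cathepsin B, had 0.888 and 1.11, and Lamp1, for a lysosomal membrane protein, had 0.727 and 0.734. Apoe, for a lipid carrier, had 0.691 and 1.31, with 70.3% of its UMIs in the rich WT NOD macrophages in 1 barcode. Chosen after their values were seen, Timd4, a receptor for phosphatidylserine on dying cells, had 8.85 (3.31 to 29.7) and 5.04 (1.89 to 16.8), and Trem2, a lipid receptor, had 0.481 and 5.11 (3.67 to 7.26). Timd4 UMIs came from 6 and 12 rich barcodes, with 9 of 24 and 11 of 25 in 1 barcode.

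Genes outside the 9 whose level followed their sum over cell classes were ranked by Pearson correlation of log2(CPM + 1) over 28 points, the classes of both libraries with at least 30 barcodes. These points share libraries and depth, and no p is given. Among the 10 highest were Cebpa (0.873), Lrp1 (0.851), Snx24 (0.842), Vcam1 (0.836), Csf1r (0.831), Art3 (0.830), Sh3d21 (0.828), Cmtm3 (0.823) and Plau (0.822). Csf1r is a marker of the macrophage gate. Each of these genes was higher in macrophages than in B cells of both libraries. The ranking favours such genes, because the sum of the 9 was itself far higher in macrophages than in B cells. By Spearman correlation 3 of the 10 were also among the 10 highest.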

How the data were processed

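Per the file headers, the authors made the deposited matrices of raw UMI counts per gene and barcode with Cell Ranger 7.0.1; the submitters' processing notes name mm10. The annotation release and whether introns were counted are not given in the sources used here. From these counts, barcodes with at least 500 genes and at most 10% mitochondrial UMIs were kept. Cell classes were gated on fixed markers (B cells, 3 of 6 markers; T cells, 2 CD3 chains; macrophages, 4 of 10), allowing 1 marker of another lineage. The first macrophage gate was stricter on dendritic cell markers and was changed after hormone values under it had been seen. Doublets were treated by these limits, and scores in the manner of Scrublet were an alternative. UMIs were summed per class and library, and given per cell or as CPM. Sums have exact Poisson, shares exact Clopper-Pearson and ratios exact conditional binomial 95% intervals, which cover counting error only. A share of 0 is limited by 3 counts, not by an exact interval. Genes at 0 were set to 0.5 UMIs in counts over all genes. Named genes were the 9 genes, the most abundant of each list and the 10 most alike in pattern, of which 1 is not reported here. The genes and lists were chosen with earlier results of these data known. Of the gene IDs, 32158 of 32285 are in GENCODE M21. The steps were tested on simulated data. Python 3.11.15, numpy 2.4.6, scipy 1.17.1, pandas 2.3.3, scikit-learn 1.9.0, Biopython 1.88 and matplotlib 3.10.9 were used.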

Additional observations from a re-analysis of the deposited data

Results flagged for a closer look

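Barcodes left out of the comparisons carried more hormone UMIs than B cells did. The 1582 WT NOD barcodes with fewer than 500 genes held, per barcode, 0.207 UMIs of Ins1 (B cells 0.0789), 0.274 of Ins2 (0.135), 0.0556 of Iapp (0.0282), 0.535 of Gcg (0.0355) and 0.0544 of Sst (0.0293). The 311 such barcodes of the library labelled NOD.Cxcl16-/- held 5.70 of Ins1 (B cells 0.232), 10.2 of Ins2 (0.416), 1.01 of Iapp (0.0366), 0.209 of Gcg (0.0262), 2.50 of Sst (0.0300) and 0.325 of Pyy (0.00141). Barcodes over 10% mitochondrial UMIs, 25 in WT NOD, held 1.80 of Ins1 and 4.36 of Ins2 per barcode, of which 44 of 45 Ins1 and 106 of 109 Ins2 UMIs were in 1 barcode (0.0417 and 0.125 per barcode without it, below B cells), and the 29 of the other library held 2 of Ins2, 1.10 of Iapp and 4.45 of Sst, with 30 of 32 Iapp and 128 of 129 Sst UMIs in 1 barcode (0.0714 and 0.0357 without it). Among barcodes with fewer than 500 genes, 52 of the 65 Gcg UMIs of the library labelled NOD.Cxcl16-/- were in 1 barcode (0.0419 without it), and without the highest barcode WT NOD held 0.118 of Ins1, 0.168 of Ins2, 0.0285 of Iapp, 0.373 of Gcg and 0.0285 of Sst.

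The Ins2 level of plasmacytoid dendritic cells over B cells lay below 1 in WT NOD (0.739) and above 1 in the library labelled NOD.Cxcl16-/- (7.99). The WT NOD value rests on 3 UMIs in 30 cells and lay at or above 1 under 4 alternatives: 1.19 with at least 1000 genes, 1.18 with no limit on markers of other lineages, 3.35 with no such marker allowed and 7.21 without the 5% of barcodes with the most UMIs of the 9 genes. The difference between the libraries was not tested.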

How the results depend on the processing

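Each alternative left macrophages above B cells for Ins1, Ins2 and the 9 genes summed, in both libraries, while the ratio moved. Values are for Ins1, Ins2 and the sum, in that order, and for the library labelled NOD.Cxcl16-/- after WT NOD. At least 200 genes per barcode gave 191 for the sum in WT NOD. At least 1000 genes gave 316 and 268 (Ins2, sum), and 199, 228 and 203. Allowing no marker of another lineage gave 1142, 996 and 525, and 156 for Ins1. No limit on such markers gave 138, 135 and 122, and 83.8, 79.1 and 77.6. Leaving out barcodes with 3 or more endocrine markers gave 76.0, 88.5 and 78.0, and 99.01, 115 and 105. Leaving out the 5% of barcodes with the most UMIs of the 9 genes gave 483, 530.3 and 609.8, and 78.6, 99.2 and 92.7. CPM gave 127, 142 and 110, and 99.7, 114 and 101; with the 9 genes left out of the total, 128, 143 and 110, and 101, 115 and 102. Thinning to 2000 UMIs gave 149.7, 189 and 166, and 83.1, 107 and 92.3. With CD4 T cells as the background Ins2 and the sum gave 30.6 and 24.2, and 84.2 and 59.4; with CD8 T cells Ins2 gave 71.9 and 149. Of 2 alternatives chosen after seeing the data, leaving out the highest barcode of each class gave 102, 125 and 100.1, and 154, 173 and 155, and the stricter macrophage gate (63 and 139 barcodes) gave 228 and 188 for the sum.

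Of the 9 genes, 7 were higher in macrophages of the library labelled NOD.Cxcl16-/- than in those of WT NOD, and 4 with no limit on other markers. The 7 include Ppy and Chgb, with few UMIs, and Chga at a ratio of 1.13. In WT NOD 2 genes had a larger share in macrophages than in B cells, against 4 with no limit on markers, 5 without barcodes of 3 endocrine markers, 4 without the top 5%, 1 after thinning and 5 without the highest barcode. Both counts are of direction alone. They have no share over all genes beside them, so nothing is read from them about the 9 genes. The Spearman ranking shared 3 of 10 genes. Ratios between the libraries in macrophages changed direction for Gcg (0.214) and Pyy (0.386) with no limit on markers; for Iapp without barcodes of 3 endocrine markers (1.17), without the top 5% (1.497), thinned (1.27) and without the highest barcode (1.51); and for Sst with no other marker allowed (1.09) and thinned (1.15). Shares in macrophages over B cells turned for Ins2 of WT NOD without the top 5% (0.870), and for Sst without the top 5% in the second library (2.36), and in WT NOD without barcodes of 3 endocrine markers (1.40), the top 5% (3.31) or the highest barcode (1.09). The cause of these changes was not tested. Of all other values of single genes and classes, 392 moved by less than their interval and 127 by more.

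No paired analysis was possible because each group has 1 library. Limits of depth were 3 counts: Ppy could not be read in macrophages, and insulin in γδ T cells of WT NOD is known only as an upper limit.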

Other observations

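RNA of other pancreatic and blood cells was followed by the same gates. A list of 18 acinar genes, the digestive enzymes of the exocrine pancreas such as Prss2 and Cela1, gave 2 and 11 UMIs in macrophages (0.0282 and 0.0643 per cell) and 66 and 130 in CD4 T cells (0.0480 and 0.0974 per cell), against 0.00627 and 0.00656 per B cell. Over B cells these were ratios of 4.49 (0.488 to 20.2) and 9.81 (4.03 to 23.2) in macrophages and of 7.65 (4.10 to 15.5) and 14.8 (8.54 to 27.9) in CD4 T cells, with intervals that overlap, so no order of the 2 classes is read. Haemoglobin genes gave no UMI in macrophages of either library. Immunoglobulin genes in macrophages stood at 0.0947 and 0.133 of the B-cell level per cell. In the library labelled NOD.Cxcl16-/- 550 of the 697 Igkc UMIs of insulin-rich macrophages were in 1 barcode.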
